A study of Mus musculus with 6 samples.

Results

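The 8 genes described here, Lgr5, Tnfrsf19, Lrig1, Prom1, Bmi1, Runx1, Olfm4 and Cckbr, are used in the literature as markers of stem and progenitor cells in the stomach or the neighbouring gut. They were picked by gene symbol, a rule that itself uses no measured value, but with earlier results of these data known. Each matched 1 of the 39179 genes in the deposited table. RNA sequencing measured them in mouse pylorus, in 3 libraries from Sox2 KO mice and 3 from Sox2 WT mice. Sox2 KO mice carried Rosa26CreER, a Cre recombinase that tamoxifen switches on and that the broadly active Rosa26 locus expresses, together with Sox2 fl/fl. Sox2 WT mice had an unmodified Rosa26 locus and the same Sox2 fl/fl alleles. All were C57BL/6 x 129 mixed, were given tamoxifen at 8 weeks of age and had their stomachs taken 2 weeks later, so the groups differ in the CreER allele as well as in Sox2. The muscle layer was peeled off and RNA was taken from the epithelium and mesenchyme that remained. Nothing in the labels ties each library to its own mouse, so p-values reflect the spread between the libraries, which may be partly technical. Values by library are given in the order of replicates 1 to 3.

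The pylorus, the outlet of the stomach, is lined by glands that renew throughout life from cells near the gland base and in the isthmus above it. At the base, stem cells respond to Wnt ligands and R-spondins, for which Lgr5 is a receptor. Other markers label reserve or regional populations, including cells of the acid-secreting corpus, and several are also active in cells that are not stem cells. In a bulk library, fewer marked cells and less of the marker's RNA per cell cannot be told apart.

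The library labels held at the targeted gene. Sox2 was at 0.342, 0.210 and 0.420 RPKM (reads per kilobase of gene, scaled to library size) in Sox2 KO, against 11.1, 9.03 and 10.9 RPKM in Sox2 WT. Reads in genes, recovered from the RPKM, numbered 29776683 to 32581723 in the Sox2 KO libraries and 22015339 to 27535555 in the Sox2 WT libraries. By Xist and Y-linked genes, the 3 Sox2 KO libraries and Sox2 WT replicate 1 were male and Sox2 WT replicates 2 and 3 were female, so sex ran largely with genotype. Markers of surface mucous cells summed to 88410 RPKM or more in every library, whereas the 3 squamous markers Krt5, Krt14 and Trp63 summed to at most 0.145 RPKM, and of the 4 enterocyte genes Sis was listed at 0, Lct was at or below 0.0168 RPKM, and Alpi and Fabp2 were at 2.25 RPKM or more. Genes of parietal cells, which secrete acid in the corpus, were above 0 in every library and uneven within each group. Their 5 listed genes summed to 1327, 1411 and 725 RPKM in Sox2 KO, against 777, 2726 and 372 RPKM in Sox2 WT.

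Setting Sox2 KO against Sox2 WT asks whether stem and progenitor marker RNA differs once Sox2, itself a stem cell factor, is deleted. None of the 7 markers that could be tested passed. Prom1, Lrig1, Bmi1 and Lgr5 stayed within a narrow band in all 6 libraries, with group means that differed by less than the larger of the SDs. Runx1 varied more. Tnfrsf19 and Cckbr were highest in 1 Sox2 WT library. Olfm4 was the exception in size, with a Sox2 KO mean 2.09 times the Sox2 WT mean, in groups that overlapped. Limma tested log2(RPKM + 0.5) over the 14045 genes with a mean of at least 0.5 RPKM and called 4 of them at an adjusted p under 0.05, or 0.0285%. It called 0 of the 7 tested markers, and voom on recovered reads also called 0. At an unadjusted p under 0.05, limma put 1 of the 7, Olfm4, past the threshold, beside 442 of all genes tested (3.15%). The values of the groups did not overlap for 0 of the 8 markers and for 995 of the tested genes (7.08%), 575 of them higher in Sox2 KO (4.09%) and 420 lower (2.99%). The median log2 fold change was -0.04 over the 7 markers that passed the filter and 0.02 over all tested genes. Every limma adjusted p for a marker was 1.00, and exact two-sided permutation tests of 3 against 3 gave p from 0.2 for Olfm4 to 1.0 for Bmi1, where 0.1 is the smallest this design allows. In the male libraries alone, against the lone male Sox2 WT library, the log2 fold change was -0.11 for Lgr5, -0.10 for Prom1, 0.09 for Lrig1 and -0.36 for Runx1. There it was also 0.19 for Bmi1, 0.14 for Tnfrsf19 and, without a filter, 0.10 for Cckbr, each with a sign opposite to that over all 6 libraries, and 0.98 for Olfm4. The 95% intervals that follow are limma's for each gene alone.

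**Figure D1:**
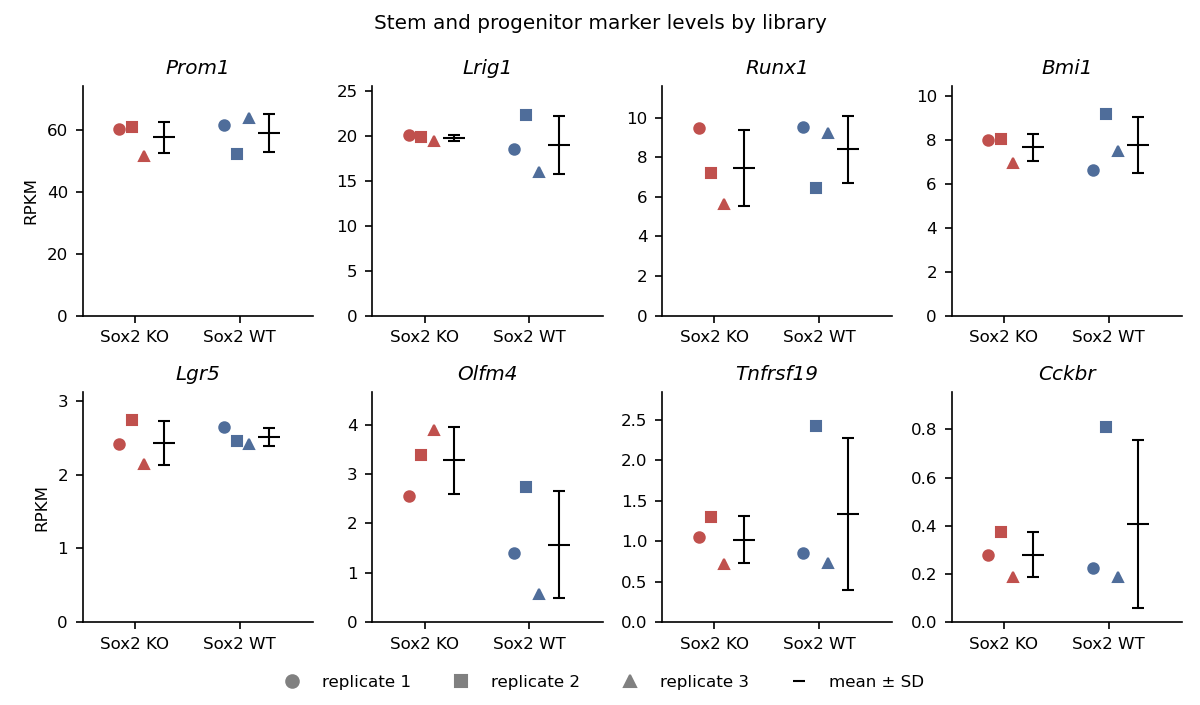
Level of each marker in RPKM (vertical axes, linear, from 0) in the 3 Sox2 KO and 3 Sox2 WT libraries, with marker shape giving the replicate number and black bars the mean ± SD. Prom1, Lrig1, Bmi1 and Lgr5 lie in narrow bands, and Sox2 WT replicate 2 stands above the other libraries for Tnfrsf19, at 2.43 RPKM, and Cckbr, at 0.810 RPKM.

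RPKM divides by gene length, so levels may be set beside each other between genes. Averaged over the 6 libraries, Prom1 was highest at 58.3 RPKM, above 93.6% of tested genes. Lrig1 followed at 19.4 RPKM, Runx1 at 7.92 RPKM, Bmi1 at 7.71 RPKM, Lgr5 at 2.47 RPKM, Olfm4 at 2.42 RPKM, Tnfrsf19 at 1.18 RPKM and Cckbr at 0.344 RPKM. The lowest Prom1 value, 51.7 RPKM, lay above the highest Lrig1 value, 22.4 RPKM. Likewise the lowest Lrig1 value, 16.0 RPKM, lay above every Runx1 value and the lowest Bmi1 value, 6.64 RPKM, above every Lgr5 value. Runx1 and Bmi1 overlapped, with Runx1 the higher in 3 of 6 libraries. Lgr5 and Olfm4 overlapped too, with Lgr5 the higher in 2 of 6, and so did Olfm4 and Tnfrsf19. Tnfrsf19 exceeded Cckbr within each of the 6 libraries although their ranges touched, at 0.718 RPKM for the lowest Tnfrsf19 value and 0.810 RPKM for the highest Cckbr value.

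Lgr5 (ENSMUSG00000020140, mm10 chromosome 10, 115450311 to 115587780, minus strand) encodes a receptor for R-spondins and marks Wnt-responsive stem cells at the base of pyloric glands. It was at 2.42, 2.74 and 2.14 RPKM in Sox2 KO, against 2.65, 2.46 and 2.41 RPKM in Sox2 WT. The groups interleave, and the highest and the lowest library are both Sox2 KO. The mean was 2.43 ± 0.298 RPKM in Sox2 KO and 2.51 ± 0.123 RPKM in Sox2 WT (SD, n = 3 each), with a log2 fold change of -0.04 (SE 0.123). Its 95% interval spans fold changes from 0.797 to 1.19. Between 510 and 659 reads lay behind each value, for which counting alone gives an error of 4.18%, beside a coefficient of variation of 8.41% over the 6 libraries.

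Tnfrsf19, also called Troy (ENSMUSG00000060548, chromosome 14, 60963875 to 61046490, minus strand), encodes a TNF receptor family member that dampens Wnt signalling in Lgr5 cells of the mouse gut and marks a subset of chief cells in the mouse corpus. Its levels were 1.05, 1.30 and 0.718 RPKM in Sox2 KO, against 0.860, 2.43 and 0.732 RPKM in Sox2 WT. Sox2 WT replicate 2 was the highest library and the remaining 5 lay between 0.718 and 1.30 RPKM. The log2 fold change was -0.18 (SE 0.336), with a 95% interval from 0.512 to 1.53 in fold change. Without Sox2 WT replicate 2 the log2 fold change was 0.22, so 1 library set its direction. The value rests on 89 to 324 reads a library.

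Among the genes that act with Lgr5, the Wnt co-receptor genes Lrp5 and Lrp6, the R-spondin receptor gene Lgr4, the membrane ligase genes Rnf43 and Znrf3 that R-spondins restrain, the ligand gene Rspo3 and the Wnt target Axin2 were tested, and 0 of these 7 passed (limma, 0 also at an unadjusted p under 0.05). Lgr4 was the most abundant, at 64.5, 54.7 and 46.0 RPKM in Sox2 KO and 47.7, 44.6 and 48.9 RPKM in Sox2 WT. The groups overlapped and its log2 fold change was 0.21 (SE 0.141). Rnf43 averaged 4.92 RPKM in Sox2 KO and 4.87 RPKM in Sox2 WT, a log2 fold change of 0.01 (SE 0.111). Of the R-spondin genes, Rspo3 averaged 1.78 RPKM in Sox2 KO and 1.60 RPKM in Sox2 WT. Rspo1, Rspo2 and Rspo4 stayed at or below 0.490 RPKM in each library, and the third receptor gene, Lgr6, at or below 0.102 RPKM.

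Lrig1 (ENSMUSG00000030029, chromosome 6, 94604529 to 94700158, minus strand) encodes a transmembrane protein that restrains ErbB receptors and marks progenitors in several epithelia. It was at 20.1, 19.9 and 19.5 RPKM in Sox2 KO, against 18.6, 22.4 and 16.0 RPKM in Sox2 WT. All Sox2 KO values lay inside the Sox2 WT range. The mean was 19.8 ± 0.310 RPKM in Sox2 KO and 19.0 ± 3.23 RPKM in Sox2 WT (SD, n = 3 each; log2 fold change 0.07, SE 0.134, 95% interval 0.846 to 1.31 in fold change). Lrig1 lies 18.4 Mb from the Rosa26 locus on the same chromosome, so alleles linked to the CreER insertion cannot be told apart from Sox2 deletion at this gene. The annotation places the end of Slc25a26, at a mean of 3.97 RPKM, over the end of Lrig1 on the opposite strand, and whether the counting used strand is not known here.

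The ErbB receptors that Lrig1 restrains, their ligands and the LRIG paralogs gave 0 calls among 11 tested genes (limma, 0 at an unadjusted p under 0.05), with a median log2 fold change of 0.00. Erbb3 averaged 45.0 RPKM in Sox2 KO and 42.3 RPKM in Sox2 WT, and Erbb2 24.0 RPKM in Sox2 KO and 23.1 RPKM in Sox2 WT. Egfr was at 9.90, 6.36 and 4.27 RPKM in Sox2 KO and 5.40, 3.26 and 7.22 RPKM in Sox2 WT, overlapping with a log2 fold change of 0.33 (SE 0.341). Among the ligands, epiregulin, Ereg, had the most negative log2 fold change of the list, -0.54 (SE 0.275). Its levels were 1.67, 0.808 and 1.25 RPKM in Sox2 KO and 1.94, 2.95 and 1.32 RPKM in Sox2 WT. Egf itself was under the filter, at 0.0911 to 0.698 RPKM, and Erbb4 was listed at 0 in every library.

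**Figure D2:**
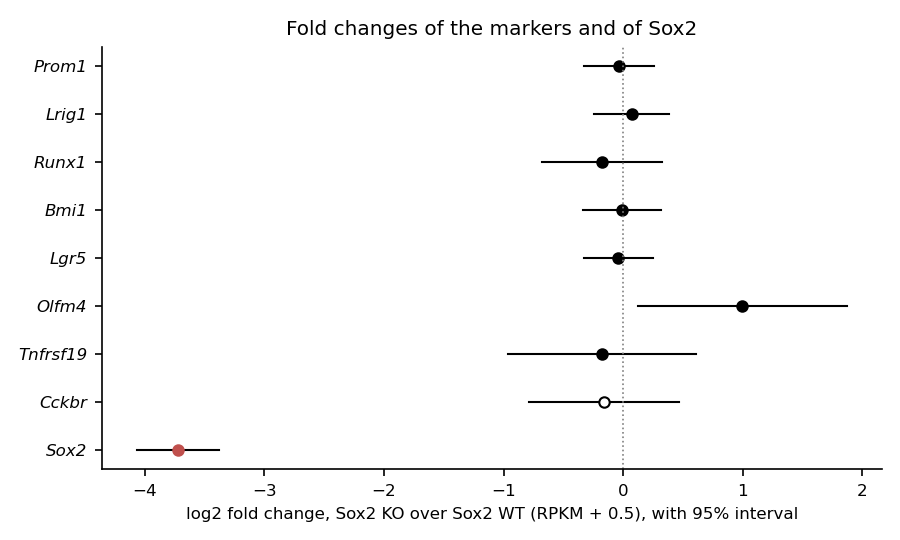
Log2 fold change, Sox2 KO over Sox2 WT on log2(RPKM + 0.5), for each marker (rows, from highest to lowest mean level) and for Sox2, with limma's 95% interval for each gene alone. The open point, Cckbr, comes from the fit without a filter on low values. Prom1, Lrig1, Bmi1 and Lgr5 have intervals between -0.34 and 0.39, the Olfm4 interval runs from 0.12 to 1.87, and Sox2 lies at -3.72.

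Prom1 (ENSMUSG00000029086, chromosome 5, 43993620 to 44102032, minus strand) encodes prominin-1, or CD133, a cholesterol-binding glycoprotein of membrane protrusions that is found on stem cells and on many differentiated epithelial cells. It was at 60.1, 60.8 and 51.7 RPKM in Sox2 KO, against 61.4, 52.0 and 63.6 RPKM in Sox2 WT. Each group holds 2 libraries near the top of the range and 1 near its floor. The mean was 57.5 ± 5.10 RPKM in Sox2 KO and 59.0 ± 6.16 RPKM in Sox2 WT (SD, n = 3 each), and the 95% interval of the fold change was 0.795 to 1.20. It was the most deeply counted marker, with 6821 to 8374 reads a library. The paralog Prom2 averaged 2.33 RPKM in Sox2 KO and 2.25 RPKM in Sox2 WT, with overlapping values and a log2 fold change of 0.06 (SE 0.200).

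Bmi1 (ENSMUSG00000026739, chromosome 2, 18677018 to 18686629, plus strand) encodes a subunit of Polycomb repressive complex 1 (PRC1), which ubiquitinates histone H2A, and marks reserve stem cells of the mouse intestine. Its levels were 7.99, 8.03 and 6.94 RPKM in Sox2 KO, against 6.64, 9.15 and 7.49 RPKM in Sox2 WT. The highest and the lowest library were both Sox2 WT. The log2 fold change was -0.01 (SE 0.139, 95% interval 0.793 to 1.24 in fold change). Only 6.56% of tested genes had a fold change smaller in size.

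Of the other PRC1 genes and the Cdkn2 targets, 0 of 16 tested passed (limma, 0 at an unadjusted p under 0.05), with 8 positive and 8 negative log2 fold changes and a median of 0.01. The catalytic subunit genes Rnf2 and Ring1 overlapped between the groups, with a log2 fold change of 0.08 for Rnf2 (SE 0.134) and 0.04 for Ring1 (SE 0.106). The chromobox gene Cbx8 was at 1.93, 1.56 and 1.85 RPKM in Sox2 KO, against 1.50, 1.14 and 1.47 RPKM in Sox2 WT, with groups that did not overlap and a log2 fold change of 0.29 (SE 0.141). Cbx6 lay the other way, at 2.55, 2.65 and 2.48 RPKM in Sox2 KO, against 3.22, 3.47 and 2.67 RPKM in Sox2 WT, with a log2 fold change of -0.24 (SE 0.125). Neither passed (limma adjusted p = 1.00 for each). Over all the partner and paralog lists, 3 of 42 tested genes did not overlap between the groups, beside 7.08% of all tested genes. Cdkn2a, the cell cycle inhibitor locus that Bmi1 silences, was at 0 to 0.102 RPKM, and its neighbour Cdkn2b averaged 19.7 RPKM in Sox2 KO and 17.5 RPKM in Sox2 WT (log2 fold change 0.23, SE 0.298).

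Runx1 (ENSMUSG00000022952, chromosome 16, 92601466 to 92826149, minus strand) encodes a Runt-domain transcription factor of blood formation, and an enhancer of the gene marks isthmus stem cells of the mouse stomach. Its levels were 9.45, 7.21 and 5.64 RPKM in Sox2 KO, against 9.51, 6.47 and 9.22 RPKM in Sox2 WT. Both groups include a library above 9 RPKM, and the lowest is Sox2 KO replicate 3. The log2 fold change was -0.17 (SE 0.213, 95% interval 0.626 to 1.25 in fold change). Leaving out 1 library in turn gave -0.35 without Sox2 KO replicate 1 to -0.0034 without Sox2 KO replicate 3. The 8 leukocyte markers, 6 of them tested and 0 called, summed to 90.4, 86.4 and 49.9 RPKM in Sox2 KO, against 69.8, 54.9 and 101 RPKM in Sox2 WT. That sum was also lowest in Sox2 KO replicate 3 and next lowest in Sox2 WT replicate 2, as Runx1 and Prom1 were. Most of the sum was Lyz2, which put the libraries in the same order. Its levels were 73.0, 69.5 and 38.4 RPKM in Sox2 KO, against 53.6, 41.8 and 87.7 RPKM in Sox2 WT. Csf1r and Itgam were also lowest in Sox2 KO replicate 3, at 4.43 and 0.684 RPKM. Ptprc was lowest in Sox2 WT replicate 2, at 0.831 RPKM. Runx1 shared 3 of 6 places with the leukocyte order of libraries and Prom1 shared 4. The list member Kit was highest in Sox2 WT replicate 2, at 3.41 RPKM. The part of leukocytes in these values was not tested. Cbfb, which encodes the DNA-binding partner of RUNX proteins, averaged 25.6 RPKM in Sox2 KO and 26.1 RPKM in Sox2 WT (log2 fold change -0.03, SE 0.102). The paralogs Runx2 and Runx3 were at or below 0.404 RPKM in each library and untested. Runx3 did not overlap between the groups, at 0.202, 0.186 and 0.189 RPKM in Sox2 KO, against 0.357, 0.207 and 0.314 RPKM in Sox2 WT. Only 27 to 43 reads lay behind each value, a counting error of 17.5%. The gap between 0.202 and 0.207 RPKM is within that error.

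Olfm4 (ENSMUSG00000022026, chromosome 14, 79984081 to 80023139, plus strand) encodes olfactomedin 4, a secreted glycoprotein of intestinal crypt base cells that neutrophils also make. It was at 2.55, 3.39 and 3.90 RPKM in Sox2 KO, against 1.40, 2.73 and 0.576 RPKM in Sox2 WT. The groups overlap, because Sox2 WT replicate 2 lay above Sox2 KO replicate 1. The mean was 3.28 ± 0.682 RPKM in Sox2 KO and 1.57 ± 1.09 RPKM in Sox2 WT (SD, n = 3 each). On the log2 scale the fold change was 1.00 (SE 0.372, unadjusted p = 0.0306 and adjusted p = 1.00 by limma), with a 95% interval from 1.09 to 3.65 in fold change. The fold change was larger in size than that of 99.3% of tested genes, and the exact permutation p was 0.2.

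The Olfm4 values rest on 124 to 216 reads in the Sox2 KO libraries and 24 to 125 in the Sox2 WT libraries. The log2 fold change stayed positive in each of the 19 alternatives, from 0.595 without Sox2 WT replicate 3 to 1.39 without Sox2 WT replicate 2. Filters, variance estimates, the replicate block and the other threshold leave it unchanged by construction, so they do not test its sign. The adjusted p ran from 0.476 to 1.00. Against the male Sox2 WT library alone, with sex as a covariate, the log2 fold change was 0.98. Of the 4 enterocyte markers, Alpi and Fabp2 were tested and 0 called. Alpi, encoding intestinal alkaline phosphatase, was at 2.25, 6.76 and 5.30 RPKM in Sox2 KO, against 8.73, 6.27 and 17.6 RPKM in Sox2 WT, overlapping with a log2 fold change of -1.10 (SE 0.449, limma unadjusted p = 0.0433, adjusted p = 1.00). Fabp2, encoding a fatty acid binding protein, was at 17.6, 18.0 and 18.3 RPKM in Sox2 KO and at 16.6, 17.9 and 28.5 RPKM in Sox2 WT. The 4 markers summed to 19.9, 24.8 and 23.6 RPKM in Sox2 KO and to 25.3, 24.1 and 46.1 RPKM in Sox2 WT, highest in Sox2 WT replicate 3, where Olfm4 was lowest. The enterocyte sum was lowest in Sox2 KO replicate 1, whereas Olfm4 was highest in Sox2 KO replicate 3. The sums of the parietal and chief cell markers were lowest in Sox2 WT replicate 3, at 372 and 509 RPKM, as Olfm4 was. The part of any of these lists in the Olfm4 values was not tested. The related genes Olfm1 and Olfml3 did not pass, at a log2 fold change of -0.02 for Olfm1 (SE 0.115) and 0.09 for Olfml3 (SE 0.171). Olfm2 and Olfm3 were under the filter.

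Cckbr (ENSMUSG00000030898, chromosome 7, 105425731 to 105470898, plus strand) encodes the receptor for gastrin and cholecystokinin, present on parietal and enterochromaffin-like cells and on a progenitor population of the mouse antrum. It was under the filter on low values, at 0.279, 0.374 and 0.189 RPKM in Sox2 KO, against 0.225, 0.810 and 0.188 RPKM in Sox2 WT. As with Tnfrsf19, Sox2 WT replicate 2 stood above the others. Only 15 to 71 reads lay behind each value, so that counting alone gives an error of 20.7%. Without the filter, over 23494 genes of which limma called 3 (0.0128%), the log2 fold change of Cckbr was -0.16 (SE 0.260, 95% interval 0.579 to 1.38 in fold change) and did not pass. Without Sox2 WT replicate 2 it was 0.14. The added 0.5 RPKM is larger than the Cckbr mean of 0.344 RPKM and draws the estimate and its interval towards 0. That interval is therefore not one for the ratio of the RPKM themselves. Without the filter, the log2 fold change was -0.24 (SE 0.479) with 0.1 RPKM added instead. By voom on recovered reads it was -0.32 (SE 0.544).

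Tnfrsf19 and Cckbr were both highest in Sox2 WT replicate 2, as was the sum of the parietal cell genes. From high to low, the libraries fell in the order Sox2 WT replicate 2, Sox2 KO replicate 2, Sox2 KO replicate 1, Sox2 WT replicate 1, Sox2 KO replicate 3 and Sox2 WT replicate 3 for Cckbr and for the sum of the 5 parietal genes, which shared 6 of 6 places. The lowest Cckbr values, 0.225, 0.189 and 0.188 RPKM, rest on 17, 20 and 15 reads, so counting error leaves their order uncertain. Tnfrsf19 shared 4 of the 6 places, with the last 2 libraries exchanged, at the close values of 0.732 and 0.718 RPKM. Bmi1, over its narrower 1.38-fold range, also shared 4, and Lrig1, highest in Sox2 WT replicate 2 as well, shared 2. How many of all tested genes share as many places was not counted. The ratio of Tnfrsf19 to Cckbr in RPKM was 3.76, 3.47 and 3.80 in Sox2 KO and 3.82, 2.99 and 3.89 in Sox2 WT, while Tnfrsf19 ranged 3.38-fold and Cckbr 4.31-fold over the same libraries. The parietal sum ranged 7.33-fold, with 0 of its 5 genes called and none at 0. Against Atp4a, 1 of those 5 genes, the ratios were less even and highest in Sox2 WT replicate 3. For Tnfrsf19 the ratio was 0.00201, 0.00247 and 0.00280 in Sox2 KO and 0.00280, 0.00252 and 0.00544 in Sox2 WT. For Cckbr it was 0.000535, 0.000711 and 0.000737 in Sox2 KO and 0.000734, 0.000844 and 0.00140 in Sox2 WT. Of the 3 chief cell markers, 0 were called and none was at 0. They summed to 3856, 5562 and 2098 RPKM in Sox2 KO, against 1189, 4152 and 509 RPKM in Sox2 WT. The sum was highest in Sox2 KO replicate 2, where Chia alone was at 4857 RPKM. The other markers peaked elsewhere, Gif in Sox2 WT replicate 2, at 856 RPKM, and Pga5 in Sox2 KO replicate 3, at 116 RPKM. Lgr5 ranged 1.28-fold and shared 0 places with the parietal order. The part of corpus tissue in the Tnfrsf19 and Cckbr values was not tested.

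**Figure D3:**
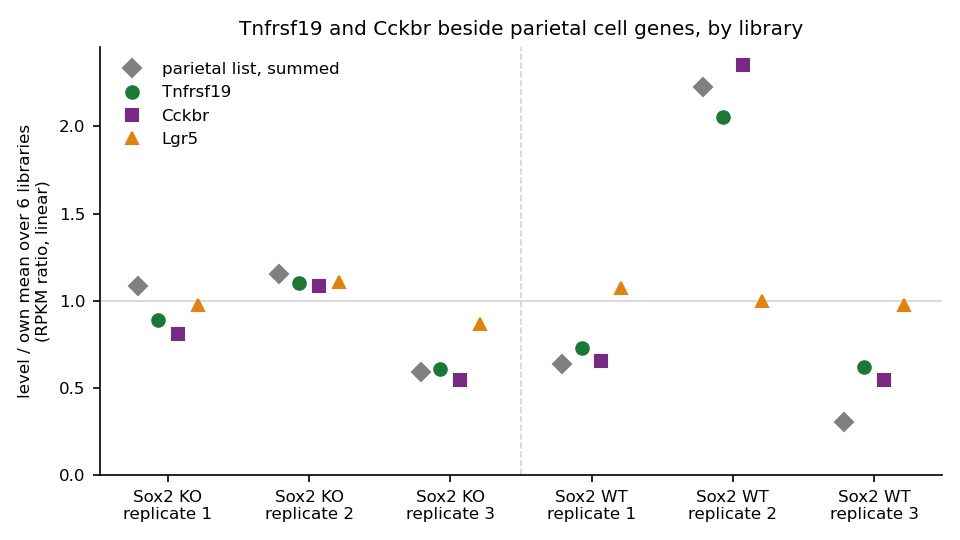
Level of Tnfrsf19, Cckbr, Lgr5 and the summed parietal cell list in each library, divided by its own mean over the 6 libraries (vertical axis, RPKM ratio, linear), with Sox2 KO left of the dashed line. Sox2 WT replicate 2 stands at 2.05 for Tnfrsf19, 2.35 for Cckbr and 2.23 for the parietal list, where Lgr5 stands at 0.996.

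The genes of the ligands and the paralog of the gastrin receptor were each above Cckbr in level in all 6 libraries, Cck by the least, at 1.10 against 0.810 RPKM in Sox2 WT replicate 2. Gastrin, Gast, made by G cells of the pylorus, was at 2766, 4439 and 6095 RPKM in Sox2 KO and at 6383, 3056 and 3496 RPKM in Sox2 WT, overlapping with a log2 fold change of 0.04 (SE 0.421). Cholecystokinin, Cck, was at 2.17, 12.0 and 8.52 RPKM in Sox2 KO and at 1.40, 1.10 and 1.90 RPKM in Sox2 WT, and the groups did not overlap. It was 1 of the 3 genes without overlap among the 42 tested partner and paralog genes, beside 7.08% of all tested genes. The log2 fold change of Cck was 1.79 (SE 0.526) with a limma adjusted p of 1.00. Without Sox2 KO replicate 1 it was 2.45 and passed (limma adjusted p = 0.0452), and over the alternatives the adjusted p ran from 0.0452 to 1.00. The paralog Cckar, a cholecystokinin receptor of chief cells, was at 8.40, 9.33 and 4.41 RPKM in Sox2 KO and at 3.54, 21.5 and 1.90 RPKM in Sox2 WT. It was highest in Sox2 WT replicate 2, as Cckbr was.

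A longer list of 18 other genes used to mark stem and progenitor cells of stomach or intestine gave 0 calls among its 16 tested genes. Limma put 2 of the 16 at an unadjusted p under 0.05, beside 3.15% of all tested genes. Without overlap, 1 was higher in Sox2 KO and 1 lower, beside 4.09% and 2.99% of all tested genes. The list had 9 positive and 7 negative log2 fold changes and a median of 0.06. Dclk1, which encodes a doublecortin-like kinase of long-lived progenitors and of tuft cells, was at 3.23, 4.19 and 2.63 RPKM in Sox2 KO, against 1.35, 1.46 and 1.67 RPKM in Sox2 WT. Its groups did not overlap, and limma gave a log2 fold change of 0.93 (SE 0.170) with an adjusted p of 0.298. Markers of tuft cells, the chemosensory cells of the gut epithelium, did not overlap between the groups either. Their 4 genes summed to 16.7, 24.8 and 16.1 RPKM in Sox2 KO, against 5.64, 7.81 and 8.17 RPKM in Sox2 WT, with 4 of 4 higher without overlap, beside 4.09% of all tested genes, 0 called and none at 0. Their part in the Dclk1 values was not tested. Ephb3, which encodes an ephrin receptor of crypt base cells, was lower in Sox2 KO without passing. It was at 5.36, 5.68 and 6.18 RPKM in Sox2 KO, against 7.02, 8.76 and 7.35 RPKM in Sox2 WT (log2 fold change -0.39, SE 0.121, limma adjusted p = 1.00).

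The remaining genes of that list overlapped between the groups. The most abundant was Aldh1a1, a retinaldehyde dehydrogenase, at a mean of 122 RPKM in Sox2 KO and 96.7 RPKM in Sox2 WT (log2 fold change 0.36, SE 0.194). Vil1, encoding the brush border protein villin, had a log2 fold change of 0.11 (SE 0.204). Aqp5, an aquaporin of pyloric gland base cells, averaged 37.5 RPKM in Sox2 KO and 46.1 RPKM in Sox2 WT (log2 fold change -0.31, SE 0.265). Under the filter were Tert, the telomerase gene, at 0.157 to 0.243 RPKM, and Lgr6.

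**Figure D4:**
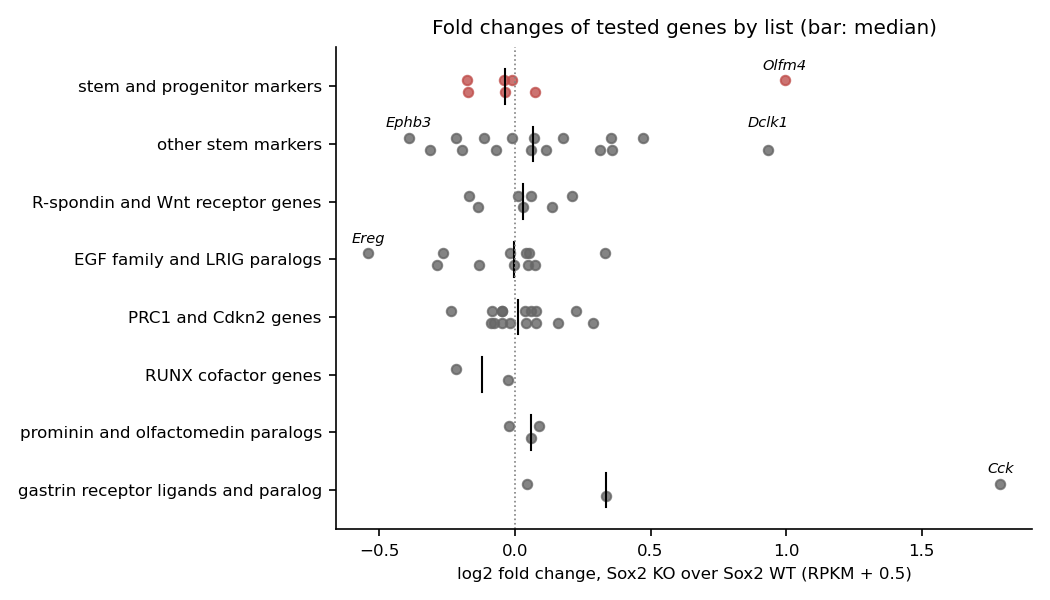
Log2 fold change, Sox2 KO over Sox2 WT on log2(RPKM + 0.5), of each tested gene (points) in the stem and progenitor marker list and in the lists of related genes (rows), with a bar at the list median. Most points lie within 0.5 of 0, and Olfm4 at 1.00, Dclk1 at 0.93, Ereg at -0.54 and Cck at 1.79 lie farther out.

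For each tested marker, the 2 genes with the most similar profile over the 6 libraries were found by the root mean square (RMS) difference of log2(RPKM + 0.5) deviations from the gene's own mean, among 10827 tested genes with a mean of at least 1 RPKM and an annotated position, leaving out genes on X or Y, segments of immunoglobulin or T-cell receptor loci, and predicted and Riken genes. With 6 libraries and so many candidates near matches are easy to find, and the matches are given as a description. The nearest to Lgr5 was Tcf7l1, a TCF-family factor of the Wnt pathway, with an RMS difference of 0.03 against the Lgr5 profile's own deviation of 0.09. Its levels were 2.28, 2.53 and 1.91 RPKM in Sox2 KO and 2.47, 2.23 and 2.09 RPKM in Sox2 WT. Rps6ka5 followed. For Tnfrsf19 the nearest were Cbs and Asap3, for Lrig1 Aqp1 and Btbd2, for Prom1 Phf2 and Npc1, for Bmi1 Scp2 and Pisd-ps2, and for Runx1 Ppp1r12a and Itgav, with RMS differences of 0.02 to 0.08. Olfm4 had no close match, with Il34 at 0.23 and Rec8 at 0.25 against its own deviation of 0.69.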

How the data were processed

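Gene expression was measured by RNA sequencing in 6 libraries of mouse pylorus, 3 Sox2 KO and 3 Sox2 WT, grouped by their titles. The authors deposited RPKM for 39179 genes with Ensembl identifiers. CASAVA 1.7, STAR and the build mm10 are named in the list of tools, per the submitters' processing notes. No source used here gives the counting tool, annotation or strandedness. The series table equals the 6 single-library tables. Coordinates come from GENCODE mouse release M21 (GRCm38, which is mm10).

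Whole reads were recovered from the RPKM by finding a whole-number length for each gene and a denominator for each library that made all reads whole, which succeeded to within 1e-06 reads for 23536 of 23538 genes above 0. The shortest such length was taken, so a gene's reads may be a fraction of the true number. The denominators were 24141182.76 to 33919302.57, and the recovered reads 0.912 to 1.09 times them, so the denominators are not the plain sum of the recovered reads. What the submitters divided by is not known here. Counting errors cover counting only.

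Rows sharing a symbol were reduced to the highest mean. Limma 3.58.1 (R 4.3.3) was fitted with a variance trend to log2(RPKM + 0.5) over genes with a mean of at least 0.5 RPKM, with Benjamini-Hochberg adjustment over all of them and a threshold of 0.05. Fold changes are Sox2 KO over Sox2 WT and understate the change of low genes. The members, lists and tests were chosen with earlier results of these data known. Genes named are the 8 markers, Sox2, the genes of the related lists, up to 3 of the most abundant genes of each other list, and the nearest 2 profiles. Dclk1 and Ephb3, the tuft list, the squamous list, Sis, Lct, Kit, Itgam and Ptprc were named after their values were seen. For some lists only sums are given. Some list members are not reported here.

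The alternatives were other pseudocounts, filters, scalings and variance estimates, the replicate number as a block, each library left out, sex, read from Xist and Y-linked genes, as a covariate, male libraries alone, voom on recovered reads, and a threshold of 0.1. The combinations of no filter with these for Cckbr were chosen after seeing the data. The code was tested on simulated data. Same-numbered libraries did not deviate together (correlations of 0.01, 0.10 and -0.07), so the numbers were not taken to pair them. With 3 libraries a group, this check cannot exclude a pairing.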

Additional observations from a re-analysis of the deposited data

How the results depend on the processing

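Of the 7 tested markers 0 passed in each of the 19 alternatives, and Cckbr passed in none of its fits without a filter; 0 of the other stem markers passed in any. The count of all genes called, 4, was 1 with the replicate block, 1 with sex as a covariate, 0 in the male libraries alone (limma), 8 by voom, 8 at an adjusted p under 0.1, and 1 to 8 with a library left out. The block was not taken to pair samples, and not every library correlated best with its own number. The partner genes gave 0 to 1 calls with a library left out, Cck being the 1. With male libraries alone, where the lone Sox2 WT library is assumed to vary like the Sox2 KO ones, the log2 fold change of Sox2 was -3.82 and its limma adjusted p 0.158.

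The sign of a marker's log2 fold change turned in 14 of 149 values over the alternatives, none past the threshold, and the cause was not tested. Many of the 149 could not turn, since filters, variance estimates, the replicate block and the other threshold leave the fold change unchanged. With sex as a covariate, and equally in male libraries alone, the log2 fold change was 0.14 for Tnfrsf19, 0.19 for Bmi1 and 0.10 for Cckbr. Leaving out 1 library in turn gave -0.11 to 0.032 for Lgr5, -0.12 to 0.040 for Prom1, -0.11 to 0.11 for Bmi1, -0.041 to 0.20 for Lrig1, -0.41 to 0.22 for Tnfrsf19 and -0.33 to 0.14 for Cckbr. Bmi1 was 0.054 without Sox2 KO replicate 3 and 0.11 without Sox2 WT replicate 2. Prom1 was 0.040 without Sox2 KO replicate 3 and 0.021 without Sox2 WT replicate 3. Lgr5 was 0.032 without Sox2 KO replicate 3, and Lrig1 -0.041 without Sox2 WT replicate 3. Counting error was highest for Cckbr, at 20.7% beside a coefficient of variation of 69.4% over the libraries, and for Olfm4, at 12.0% beside 51.2%.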

Other observations

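Genes of cycling cells, which include dividing progenitors, did not separate the groups. Their 8 markers summed to 102, 120 and 177 RPKM in Sox2 KO replicates 1 to 3 and to 133, 111 and 120 RPKM in Sox2 WT replicates 1 to 3. Limma tested all 8 and called 0, with 0 at an unadjusted p under 0.05. Mki67, the proliferation antigen gene, averaged 19.2 RPKM in Sox2 KO and 17.7 RPKM in Sox2 WT (log2 fold change 0.11, SE 0.130). The sum was highest in Sox2 KO replicate 3, the library in which Lgr5, Tnfrsf19, Prom1 and Runx1 were lowest and Olfm4 was highest.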
